A study of Homo sapiens with 24 samples.

Results

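MDAMB231 is an established human breast cancer cell line, described by the series as triple-negative, and its response to a knockdown of ADAR1 was measured by RNA sequencing. The 6 libraries titled MDAMB231 were taken from the 24 of the series, 3 from cells in which a short hairpin RNA delivered by lentivirus targets ADAR1 (shADAR1) and 3 from cells with a non-targeting hairpin (shNT). The other 18 libraries are the same arms of BT549, HCC1806 and MDAMB468 and served to estimate the spread and to ask where MDAMB231 differed. Both arms were infected for 24 h with protamine sulfate at 10 µg/ml and selected in puromycin at 2 µg/ml for 72 h, so the controls carry a virus, a hairpin and the selection too. Libraries were made from 1 µg of total RNA after removal of ribosomal RNA. The hairpins' sequences and the number of hairpins are not given in the labels. Of 37416 genes in the files, 21352 passed the filter on low counts and were tested.

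Sequencing depth differed within the line. The shADAR1 libraries of replicates 1, 2 and 3 held 20922499, 52754099 and 41440746 counts, and the shNT libraries held 10370645, 46020330 and 45432954. Both libraries of replicate 1 were therefore the shallowest of their arm, and 35.8% of the tested genes had fewer than 10 counts in shNT replicate 1 against 20.3% to 30.0% in the other 5 libraries. Levels are given below as CPM, the count scaled to the library's total, after TMM scaling, a scaling that evens out libraries by the bulk of their genes. Where 6 levels are listed, the shADAR1 libraries come first and the replicates are in the order 1, 2, 3.

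ADAR1, encoded by ADAR, converts adenosine to inosine in double-stranded RNA. Its targets include inverted repeats in 3′ UTRs and introns, and the edited duplexes are less readily bound by the cell's sensors of viral RNA. Those sensors are MDA5 (IFIH1) and RIG-I (RIGI), which signal through MAVS to interferon genes, PKR (EIF2AK2), which slows translation, and the OAS enzymes with RNase L. The series title also names MDM2, a ubiquitin ligase, as well as lipid remodelling and ferroptosis, an iron-dependent cell death by lipid peroxidation.

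The libraries carried the genes that define MDAMB231 as a mesenchymal-like line. VIM lay between 3870 and 5560 CPM and AXL between 1790 and 2530 CPM, while CDH1 did not exceed 0.375 CPM and KRT5 did not exceed 0.0577 CPM. Of the 6 mesenchymal markers only MSN was called between the arms. It was lower in shADAR1, at 533, 844 and 585 CPM against 913, 1117 and 879 CPM (adjusted p = 0.023, edgeR). The 6 epithelial markers together summed to 85.1 to 104 CPM in shADAR1 and 64.9 to 84.6 CPM in shNT, most of it CLDN4 (56.0 to 94.3 CPM), with EPCAM at 6.49 to 10.9 CPM. ESR1 and PGR, the oestrogen and progesterone receptors, stayed under 1 CPM in the 6 libraries. The 5 immune markers summed to 0.634 to 1.62 CPM in shADAR1 and 0.356 to 1.13 CPM in shNT, and the 5 fibroblast markers to 18.8 to 31.7 and 17.6 to 22.8 CPM. COL1A1 and PDGFRB made up nearly all of the fibroblast sum, and PDGFRA and DCN were at 0 in 5 of the 6 libraries.

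ADAR itself lies on chromosome 1 (154582062 to 154627999, minus strand, in the coordinates of the files). Its level was 54.6, 66.3 and 70.9 CPM in the shADAR1 libraries and 276, 297 and 305 CPM in the shNT libraries. The arms did not overlap, and the knockdown left 21.8% of the control mean. The log2 fold change was -2.19 ± 0.15 (SE, adjusted p = 6.83e-09, edgeR). The 3 pairs of same-numbered libraries gave -2.34, -2.16 and -2.10. The gene counts do not separate the interferon-induced long isoform of ADAR1 from the short one. ADARB1, which encodes the related editing enzyme ADAR2, was at 25.8, 40.4 and 31.3 CPM against 32.6, 46.0 and 35.7 CPM (adjusted p = 0.658).

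Across all genes, the knockdown was followed by more falls than rises. Of the 21352 genes tested, 429 passed an adjusted p of 0.05 (2.01%), with 136 higher (0.637%) and 293 lower (1.37%) in shADAR1. The median size of a called change was 1.52-fold, and 18 genes rose and 47 fell by more than 1 on the log2 scale. Of the 429 genes, 422 were protein-coding and 423 had arms that did not overlap, as had 14.2% of all genes tested. In the plot of fold change against level the called genes lie mostly among well-expressed genes, with a median of 55.6 CPM in shNT.

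**Figure D1:**
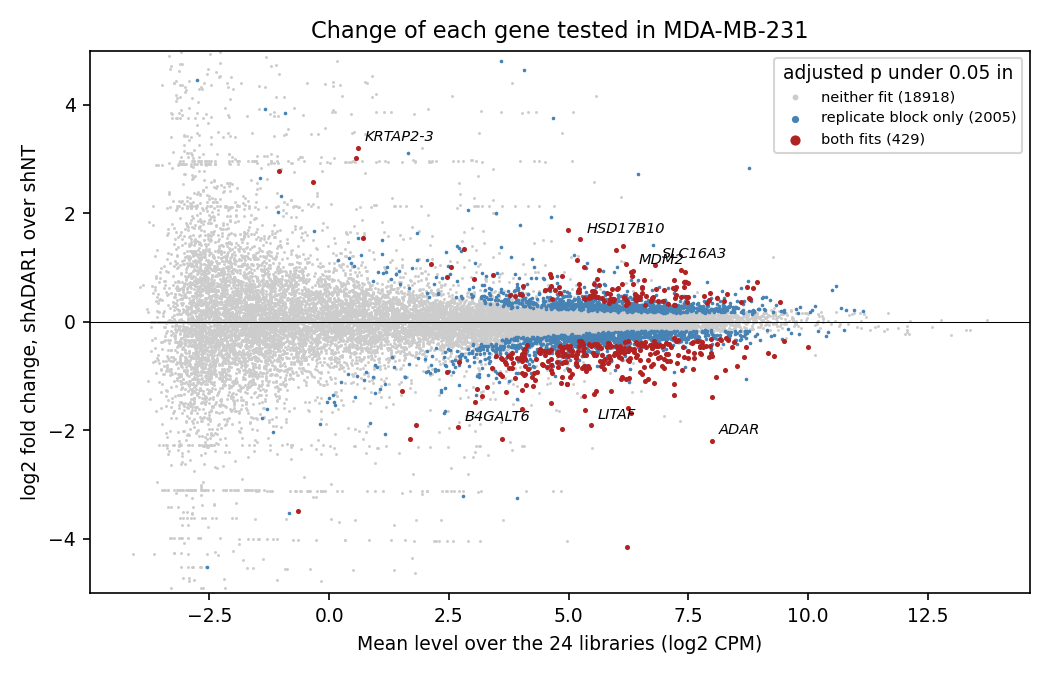
Each point is a gene tested in MDAMB231, with its mean level over the 24 libraries (log2 CPM) on the horizontal axis and its log2 fold change on the vertical axis. Red points (429) passed the threshold with and without the replicate number in the model, blue points (2005) only with it, and 45 genes lie outside the plotted range.

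Same-numbered libraries of the arms varied together. Their deviations from the group means correlated at 0.204, 0.348 and 0.149 over all genes tested, and at 0.484, 0.752 and 0.369 over the 13467 genes with at least 10 counts in each of the 6 libraries. Pairs of different numbers gave no correlation above 0.106. EGR1, an immediate early gene, shows the pattern: it was at 622, 43.0 and 332 CPM in shADAR1 and at 401, 18.7 and 231 CPM in shNT, so replicate 2 was low in both arms. With the replicate number as a block in the model, 2434 genes were called (11.4%), 1085 higher (5.08%) and 1349 lower (6.32%). All 429 genes called without the block were among them. The median size over all blocked calls was 1.27-fold, and 65 genes rose and 86 fell by more than 1 on the log2 scale. Of the 2434 genes, 1531 had arms that did not overlap. With replicate number 1, 2 or 3 of both arms left out, 1248, 1398 and 1848 of the 2434 were still called with the block. Values below are from the fit without the block unless the block is named. That fit does not use the pairing, so its SE also hold the variation that same-numbered libraries share. A gene not called in it can still differ within pairs, and 2005 genes were called only with the block.

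Among called genes with separate arms and a mean of at least 5 CPM in the higher arm, the largest rise by fold was in KRTAP2-3, a keratin-associated protein gene, with 22.1, 5.06 and 6.05 CPM against 1.11, 0.912 and 1.50 CPM. Its log2 fold change was 3.21 ± 0.60 (adjusted p = 0.00507), replicate 1 of shADAR1 was far above replicates 2 and 3, and without that library the gene lost its call. It belongs to a multigene family on chromosome 17, so its counts are uncertain. Next came HSD17B10, which encodes a mitochondrial dehydrogenase that is also a subunit of the RNase P that cuts mitochondrial tRNAs. It was at 35.5, 42.0 and 31.4 CPM against 11.3, 12.8 and 13.5 CPM, a log2 fold change of 1.52 ± 0.13 (adjusted p = 4.17e-07). The levels in the 3 shADAR1 libraries were all more than 31 CPM and those in shNT all less than 14 CPM.

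DYNLRB1, a light chain of the dynein motor, rose by 1.33 ± 0.18 on the log2 scale (adjusted p = 6.62e-05). Its shADAR1 levels were close together (109, 96.0 and 92.6 CPM), but its shNT levels spread from 26.1 to 53.6 CPM, lowest in the shallow replicate 1. KATNAL1, a microtubule-severing enzyme, was at 49.7, 44.2 and 49.6 CPM against 19.6, 20.8 and 24.5 CPM (log2 fold change 1.14 ± 0.14, adjusted p = 1.66e-05). TMED4, a cargo receptor of the early secretory pathway, rose by 1.06 ± 0.10 (adjusted p = 4.57e-07), from 42.1 to 53.5 CPM in shNT to 93.6 to 106 CPM in shADAR1.

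SLC16A3 encodes MCT4, the transporter that exports lactate from glycolytic cells. It was at 414, 358 and 421 CPM in shADAR1 and 193, 178 and 203 CPM in shNT, and the log2 fold change was 1.06 ± 0.11 (adjusted p = 4.76e-06). The ratios of the 3 pairs, 1.10, 1.00 and 1.06 on the log2 scale, were almost the same. EIF4EBP2, a repressor of cap-dependent translation, rose by 0.95 ± 0.11 (adjusted p = 1.48e-05), with 197 to 226 CPM against 102 to 127 CPM. NUDT19, a peroxisomal hydrolase of coenzyme A, rose by 1.00 ± 0.18 (adjusted p = 0.0016), with 34.1 to 50.5 CPM against 15.7 to 24.1 CPM.

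MDM2 was the tenth of the rises named by size. Its levels were 144, 110 and 128 CPM in shADAR1 and 61.6, 60.7 and 75.6 CPM in shNT, with no overlap. The log2 fold change was 0.94 ± 0.12 (adjusted p = 4.78e-05), and the pairs gave 1.22, 0.86 and 0.76. MICB, a stress-induced ligand of the activating receptor of natural killer cells, rose by 0.96 ± 0.19 (adjusted p = 0.00466), with 88.6 to 116 CPM against 46.9 to 52.3 CPM. It shares much of its sequence with MICA, and it was not called without shADAR1 replicate 1.

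**Figure D2:**
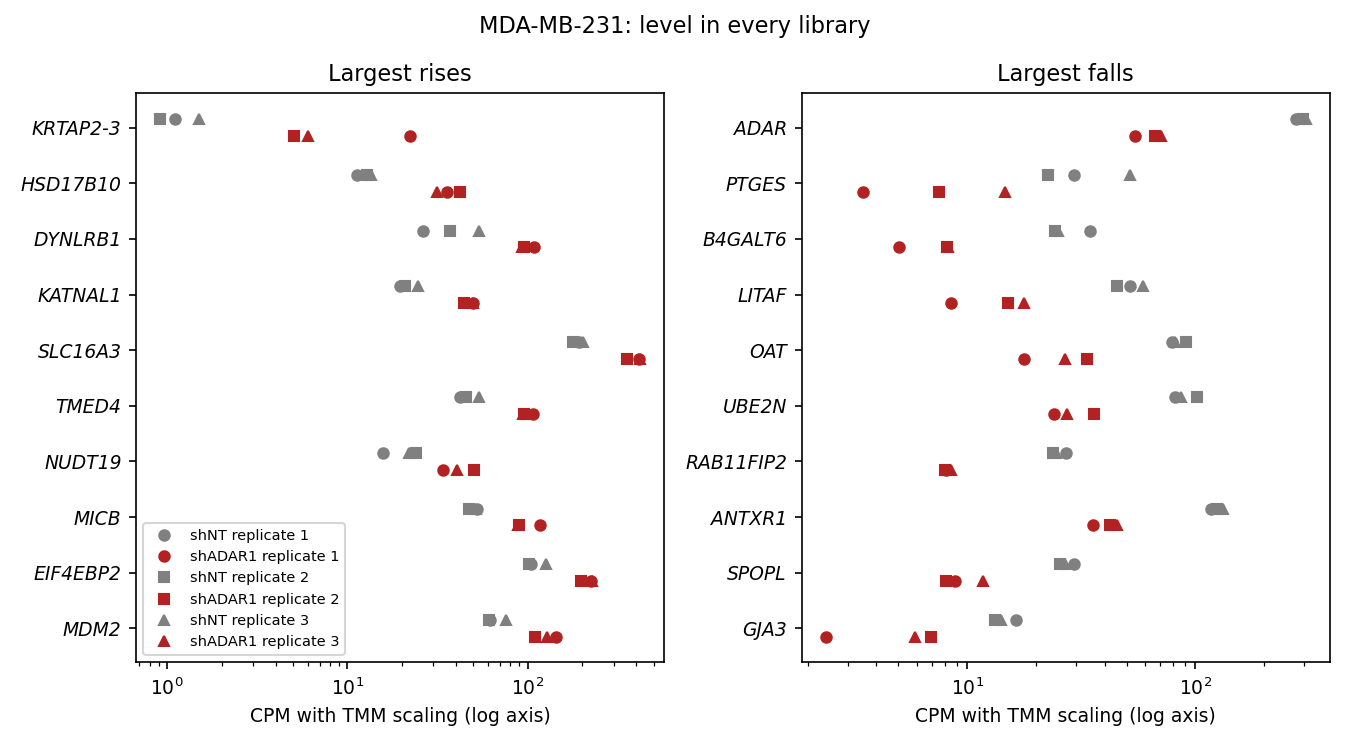
TMM-scaled CPM (log axis) of the 10 largest rises (left) and the 10 largest falls (right) past the threshold among genes with separate arms and a mean of at least 5 CPM in the higher arm, with 1 point for each of the 6 libraries: red for shADAR1, grey for shNT, and the shape for the replicate number. Since separate arms were a condition of the choice, red and grey points do not overlap in any of the 20 genes.

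Under the same conditions, the largest fall after ADAR was in PTGES, the terminal synthase of prostaglandin E2. It was at 3.50, 7.55 and 14.7 CPM in shADAR1 and 29.4, 22.5 and 51.6 CPM in shNT. The libraries spread widely within both arms. The log2 fold change of -1.98 had an SE of 0.38 (adjusted p = 0.00347), which rests on the spread in all the lines. The ratios within pairs were -3.04, -1.56 and -1.80. B4GALT6, a galactosyltransferase that makes lactosylceramide, was at 5.03, 8.19 and 8.25 CPM against 34.5, 24.3 and 25.0 CPM (log2 fold change -1.95 ± 0.26, adjusted p = 9.06e-05). Its fall was largest in pair 1, at -2.75, against -1.56 and -1.59 in the other pairs.

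LITAF, a membrane protein of late endosomes, was at 8.48, 15.1 and 17.8 CPM against 51.8, 45.5 and 59.1 CPM, a log2 fold change of -1.90 ± 0.20 (adjusted p = 3.05e-06). OAT, the mitochondrial ornithine aminotransferase, was at 17.8, 33.4 and 26.8 CPM against 79.1, 91.0 and 81.8 CPM (-1.68 ± 0.17, adjusted p = 2.44e-06). UBE2N encodes UBC13, the conjugating enzyme that builds lysine-63 ubiquitin chains in inflammatory and DNA damage signalling. It was at 23.9, 36.1 and 27.4 CPM against 81.5, 102 and 86.5 CPM (-1.62 ± 0.15, adjusted p = 7.31e-07). Each of these genes was lowest in shADAR1 replicate 1, and the highest shADAR1 library was well under the lowest shNT library.

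The other 4 named falls had levels under 46 CPM in shADAR1. RAB11FIP2, an adaptor of recycling endosomes, fell by 1.61 on the log2 scale (SE 0.15, adjusted p = 4.57e-07) and varied little, from 7.98 to 8.51 CPM in shADAR1. ANTXR1, a collagen-binding receptor also known as an anthrax toxin receptor, was at 35.7, 42.5 and 45.4 CPM against 117, 125 and 132 CPM (-1.59 ± 0.10, adjusted p = 6.31e-09). SPOPL, an adaptor of a cullin ubiquitin ligase, fell by 1.50 (SE 0.13, adjusted p = 4.05e-07), and GJA3, a gap junction connexin, by 1.49 (SE 0.23, adjusted p = 0.000441). GJA3 was at 2.40 CPM in shADAR1 replicate 1 and at 5.91 and 6.94 CPM in the others, against 13.3 to 16.4 CPM in shNT.

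A list of 10 genes that earlier results of these data gave as lower in several of the lines, ADAR among them, fell in full in MDAMB231: all 10 were called in both fits, with a median log2 fold change of -1.38. The list was chosen on these libraries, so its direction is not independent evidence. Besides ADAR, ANTXR1, B4GALT6 and UBE2N it holds AIDA, an inhibitor of JNK signalling, at 21.3, 30.0 and 24.4 CPM against 68.7, 68.4 and 59.5 CPM. PEG10, an imprinted gene derived from a retrotransposon, was at 127, 105 and 90.5 CPM against 293, 297 and 255 CPM. MLX, the partner of the glucose-sensing factors MondoA and ChREBP, was at 20.4, 25.6 and 22.8 CPM against 47.1, 52.1 and 53.7 CPM. DESI2, ISOC1 and TMCC3 had log2 fold changes of -1.27, -1.25 and -0.85. TMCC3 was the weakest of the 10 (adjusted p = 0.0271) and lost its call when any single MDAMB231 library other than shADAR1 replicate 3 was left out.

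Short sequences in the 3′ UTRs of the called genes were compared with those of all tested genes, since ADAR1 acts on duplexes in these regions and since small RNAs made from a hairpin can also pair there through a short seed. The 3′ UTR came from the GENCODE 29 transcript with the longest coding sequence (GRCh38), which gave 15975 of the tested genes a 3′ UTR. The sequences ATCTTCA and GTGGGCC had been picked from earlier results of these data, and GTCGCCC was picked here by ranking all 7-base sequences, so their shares are descriptions with no test. The lines below show sites in some of the genes just described, so that the context of each copy can be read. Each is in the 3′ UTR, 5′ to 3′ on the strand of the gene, with the 7-base sequence in capitals and 11 bases on either side in lower case.
ADAR, chr1:154582413-154582441, minus strand: tgcccactgttATCTTCActttctttgtc
B4GALT6, chr18:31624643-31624671, minus strand: caaaaaaaagtATCTTCAtttaaaaagaa
LITAF, chr16:11548916-11548944, minus strand: ctctgtgccagATCTTCAgtgcccctttc
UBE2N, chr12:93409906-93409934, minus strand: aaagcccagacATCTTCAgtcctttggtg
ANTXR1, chr2:69248037-69248065, plus strand: aacaaggtgatATCTTCAtagtgggctat
PTGES, chr9:129739504-129739532, minus strand: tccagattgtgGTGGGCCctgagtcctgg
HSD17B10, chrX:53431281-53431309, minus strand: actgcctaccaGTCGCCCtctgtgcctaa
DYNLRB1, chr20:34540895-34540923, plus strand: cagttcactttGTCGCCCttggagaaagc
SLC16A3, chr17:82239093-82239121, plus strand: cccagcggatcGTCGCCCgatcagtgttt

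Of these, ATCTTCA was in the 3′ UTR of 130 of the 289 called falls that have one (45.0%), of 8.59% of the called rises and of 11.9% of all genes. It was held by 9 of the 10 named falls, OAT being the exception, and by 0 of the 10 named rises. Among 11213 sequences of 7 bases held by at least 15 of the called falls, ATCTTCA had the highest ratio to all genes, 3.78, and GTGGGCC ranked 3 with a ratio of 3.01. The sequence ranked 2 (TATCTTC) overlaps the leading one. In turn, GTGGGCC was in 27.0% of the called falls, 12.5% of the called rises and 8.96% of all genes, but 5 of the 10 named rises held it and 4 of the 10 named falls. The other strand was not searched, since only the transcribed strand is in the mRNA.

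GTCGCCC led the rises instead. It was in 28 of the 128 called rises with a 3′ UTR (21.9%), in 1.73% of the called falls and in 3.59% of all genes, a ratio of 6.10 that ranked first of 6951 sequences held by at least 15 called rises. Of the 10 named rises, 8 held it: HSD17B10, DYNLRB1, KATNAL1, TMED4, SLC16A3, EIF4EBP2 and NUDT19 with 1 copy each and MDM2 with 3. KRTAP2-3 and MICB did not, and none of the 10 named falls did.

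Called genes had longer 3′ UTRs than the rest, with a median of 1797 bases for the falls and 1654.5 for the rises against 914 for all genes, so the shares were also read within ranges of length. Among 3′ UTRs over 500 and up to 1500 bases, the median log2 fold change was 0.00 in the 4503 genes with no ATCTTCA, -0.11 in the 318 with 1 copy and -0.27 in the 20 with 2 or more. Among those over 1500 bases it was 0.0 in 4281 genes, -0.08 in 1140 and -0.13 in 313. For GTCGCCC, 3′ UTRs over 1500 bases gave -0.02 in 5291 genes with no copy, 0.02 in 402 with 1 and 0.15 in 41 with 2 or more, and the share called higher was 0.926%, 4.48% and 7.32%. Within each of these ranges the change moved with the number of copies. For GTCGCCC over 500 and up to 1500 bases the medians were 0.0 in 4742 genes, 0.12 in 97 and 0.07 in 2, with no further rise. Up to 500 bases, genes with no copy and with 1 copy had medians of 0.03 and -0.06 for ATCTTCA (5289 and 110 genes). For GTCGCCC they were 0.03 and 0.09 (5369 and 31 genes). For GTGGGCC over 1500 bases the medians were -0.01, -0.08 and -0.08, with no further fall at 2 or more copies.

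**Figure D3:**
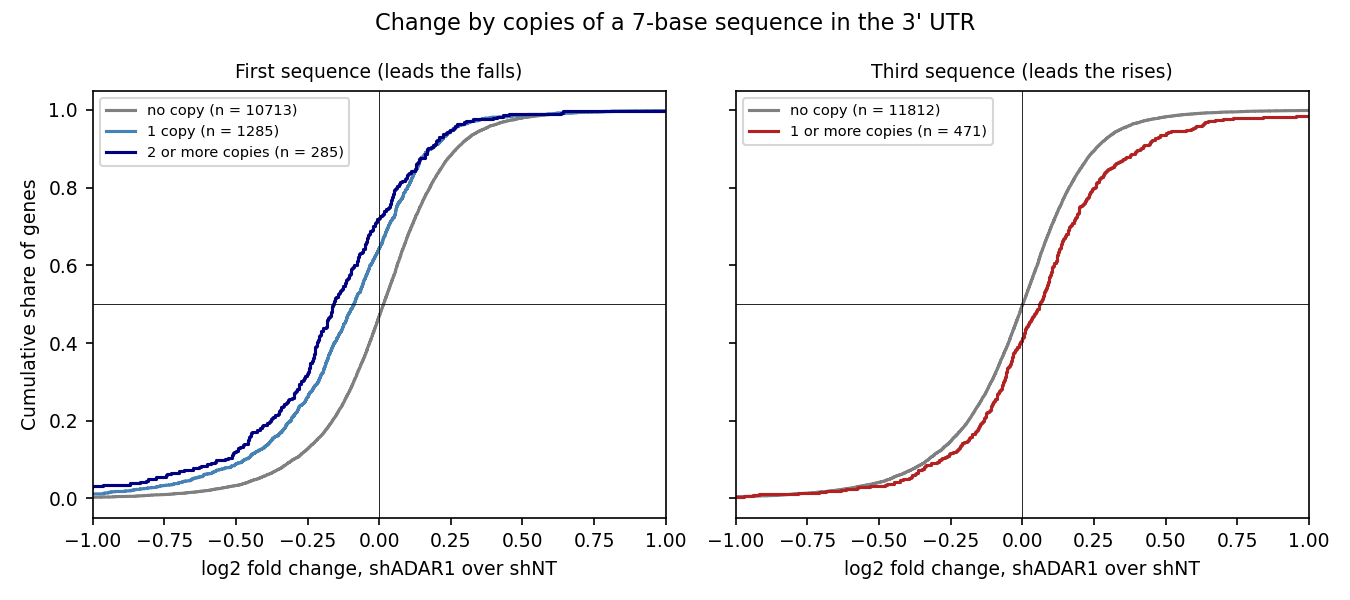
Cumulative share of genes (vertical axis) by log2 fold change (horizontal axis) for genes with at least 10 counts in each of the 6 libraries. The left panel splits them by copies of the sequence that leads the falls (medians 0.02 for no copy, -0.09 for 1 and -0.16 for 2 or more), the right panel by the sequence that leads the rises (0.00 without and 0.06 with it).

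GTCGCCC was ranked on the MDAMB231 calls, whereas ATCTTCA came from earlier results that used all 4 lines. In the other 3 lines, the same genes with at least 10 counts per MDAMB231 library were read in the same way. Genes with ATCTTCA had a median log2 fold change of -0.10 in MDAMB231, -0.02 in BT549, -0.00413 in HCC1806 and -0.00929 in MDAMB468, against 0.02, 0.02, 0.00685 and 0.01 in genes without it. Genes with GTCGCCC had medians of 0.06, 0.06, 0.01 and 0.04 against 0.00218, 0.01, 0.00489 and 0.00920 in genes without it. The sign of the shift was the same in the 4 lines for both sequences. These medians were not split by the length of the 3′ UTR. Among all tested genes with no ATCTTCA, the MDAMB231 median was 0.03 for 3′ UTRs up to 500 bases and 0.0 for those over 1500. The small shifts for ATCTTCA in the other 3 lines can therefore not be told apart from length. The arms differ in their hairpin as well as in ADAR1, so what goes with the hairpin and what goes with the enzyme cannot be told apart in these libraries.

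The remaining results follow the gene lists by role, each with its counts of called members and its median beside all genes, whose median log2 fold change was 0.0. Counts with the block are larger throughout, as they are over all genes (11.4% against 2.01%), and a list's share near those values says nothing of the list. Across the lists 36 members were called without the block, of which 20 kept the call with each of the 6 libraries left out in turn and 16 lost it without at least 1 of them. Those 16 were ACSL4, ASAP1, CDH2, DICER1, LPIN2, MAVS, MX2, PLIN3, RIPK1, RPL15, ST14, STAU2, TAB3, TMCC3, TP63 and XPOT. The first list holds the ADAR enzymes and other binders of double-stranded RNA, 15 genes in all, of which 1 rose and 3 fell (3 and 4 with the block), with a median of -0.04. Besides ADAR, the falls were STAU1 and STAU2, the Staufen proteins that bind duplexes in 3′ UTRs. STAU1 was at 136, 155 and 151 CPM against 185, 195 and 221 CPM (log2 fold change -0.44 ± 0.07, adjusted p = 0.000991) and STAU2 at 18.9, 22.7 and 24.8 CPM against 36.0, 33.5 and 32.2 CPM. The rise was DICER1, which cuts duplexes into small RNAs, at 198, 178 and 180 CPM against 161, 151 and 137 CPM (0.31 ± 0.08, adjusted p = 0.0426).

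Sensors of double-stranded RNA and their adaptors form the next list. Of 20 tested sensors and adaptors, 0 were called higher and 2 lower in both fits, 0 had an unadjusted p under 0.05 in the upward direction, and DESeq2 called 2. Over all genes 0.637% were called higher and 1.37% lower without the block, and 5.08% and 6.32% with it. A count of 0 higher among 20 is near those shares and says nothing of the list. The median was -0.15. The falls were adaptors: MAVS was at 208, 281 and 267 CPM against 290, 341 and 329 CPM (-0.34 ± 0.09, adjusted p = 0.0484) and RIPK1, a kinase of inflammatory and death signalling, at 44.8, 50.6 and 47.8 CPM against 63.7, 66.3 and 67.2 CPM (-0.46 ± 0.12, adjusted p = 0.0457). Both were near the threshold, and of 19 other settings MAVS was called in 12 and RIPK1 in 9. EIF2AK2 (PKR) was at 117, 151 and 137 CPM against 121, 149 and 141 CPM, and the arms of IFIH1 and RIGI overlapped as well. ZBP1 did not pass the filter on low counts.

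Of 40 interferon-stimulated genes tested, 1 rose and 0 fell (2 and 4 with the block), 10 had a positive log2 fold change and the median was -0.12. The rise was MX2, an interferon-induced GTPase, at a low level of 1.10, 0.615 and 1.45 CPM against 0.369, 0.0890 and 0.530 CPM (1.69 ± 0.36, adjusted p = 0.0102). With 1 library left out its log2 fold change ran from 1.06 to 2.79, and the call was lost without shADAR1 replicate 3 and without shNT replicate 2 (largest adjusted p 0.101). Common members overlapped between arms: IFIT1 was at 6.80, 9.99 and 13.5 CPM against 14.7, 9.72 and 16.8 CPM, and ISG15 at 28.3, 34.4 and 36.2 CPM against 22.9, 27.1 and 35.0 CPM. With the block, USP18, PARP14, SAMD9 and IFITM2 were lower and LGALS3BP was higher. USP18, which damps interferon signalling, had an adjusted p of 0.0221 with the block and 0.134 without it.

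Of 22 tested cytokine and NF-κB target genes, 0 were called without the block (0 at an unadjusted p under 0.05, 0 by DESeq2) and 5 rose with it, SOD2, CXCL8, TNFAIP3, CXCL2 and LIF. CXCL8 was at 12.3, 4.71 and 10.2 CPM against 11.3, 1.91 and 6.92 CPM, higher in each pair although the arms overlapped. IFNB1, IFNL1, CXCL10 and CCL2 did not pass the filter. Of 18 MHC class I genes 0 were called without the block (2 at an unadjusted p under 0.05, both higher, and 1 by DESeq2). TAPBP and TAP2 of the peptide-loading complex rose with the block, with adjusted p of 5.66e-06 and 0.00648. Of the 15 lysine-63 ubiquitin genes, 3 fell: UBE2N, TAB2 and TAB3. TAB2 and TAB3 carry the signal of these chains to the kinase TAK1. TAB2 was at 58.4, 75.3 and 80.1 CPM against 110, 101 and 113 CPM (-0.60 ± 0.09, adjusted p = 0.000447).

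In the MDM and p53 family of 5 genes, MDM2 rose and TP63 fell (2 rises and 1 fall with the block). MDM4 rose with the block, by 0.20 (adjusted p = 0.0253), and was not called without it (adjusted p = 0.444). The blocked call was lost with any 1 of the 3 replicate numbers left out. TP63 was at a low level, 0.287, 0.346 and 0.703 CPM against 1.02, 1.20 and 1.10 CPM (adjusted p = 0.0194). Of 24 tested p53 target genes, 0 rose and 1 fell without the block, and 3 rose and 4 fell with it. The median was 0.07. CDKN1A, the cell cycle inhibitor p21, overlapped between the arms at 85.0, 40.6 and 60.3 CPM against 71.0, 41.9 and 67.5 CPM. The fall was POLH, a DNA polymerase that copies past ultraviolet lesions, at 30.9 to 38.0 CPM against 48.5 to 54.1 CPM (-0.60 ± 0.10, adjusted p = 0.000857).

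Ferroptosis genes were read as suppressors and promoters. Of 26 suppressor genes 0 were called without the block (5 at an unadjusted p under 0.05, 3 by DESeq2), and 2 rose and 4 fell with it, at a median of 0.04. GPX4, the peroxidase that removes lipid peroxides, was at 152, 147 and 124 CPM against 120, 153 and 136 CPM. SLC7A11, the cystine importer, was at 119, 109 and 123 CPM against 95.0, 70.6 and 98.6 CPM (0.41, adjusted p = 0.444, and 0.00276 with the block). MBOAT1, an acyltransferase, also rose with the block, and PPARA, GCH1, SLC40A1 and SCD fell. PPARA, a lipid-sensing receptor of the nucleus, was at 26.1, 22.8 and 31.4 CPM against 37.5, 32.2 and 42.0 CPM, with an adjusted p of 0.0863 without the block and 0.000485 with it.

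Among 25 tested ferroptosis promoters the call without the block was ACSL4, which activates long polyunsaturated fatty acids for membrane phospholipids. It was at 101, 107 and 107 CPM in shADAR1 and 172, 141 and 139 CPM in shNT, a log2 fold change of -0.52 ± 0.11 (adjusted p = 0.00911). With the block 2 promoters rose (BACH1 and VDAC2) and 3 fell. BACH1, a repressor of antioxidant genes, was at 83.9, 100 and 77.8 CPM against 64.9, 75.0 and 60.3 CPM. ACSL4 lost its call without shADAR1 replicate 1 and without shNT replicate 1.

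Lipid genes were read in several lists. Of 48 fatty acid and triglyceride genes 0 rose and 2 fell (3 and 9 with the block), against a median of -0.03. PLIN3, a coat protein of lipid droplets, was at 106, 123 and 111 CPM against 173, 159 and 141 CPM (-0.47 ± 0.10, adjusted p = 0.00666), and LPIN2, which makes diacylglycerol, at 105, 118 and 127 CPM against 170, 152 and 159 CPM (-0.45 ± 0.12, adjusted p = 0.0392). PLIN3 was not called without shADAR1 replicate 1 or shNT replicate 1, and LPIN2 without any single library other than shADAR1 replicate 3. With the block ACLY, the enzyme that supplies cytosolic acetyl-CoA, fell by 0.34 (adjusted p = 0.000201), while PLIN2 rose by 0.21 (adjusted p = 0.0284). Of 26 sphingolipid genes 0 rose and 1, B4GALT6, fell (3 and 5 with the block). Of 25 sterol genes 0 were called without the block (3 at an unadjusted p under 0.05, all higher, and 0 by DESeq2), and 6 rose and 2 fell with it. Of 14 prostaglandin genes, PTGES was the fall, and ABCC4, an exporter of prostaglandins, rose with the block (adjusted p = 0.0056), but was not called with the block and replicate 1 of both arms left out (adjusted p = 0.098). Of 12 genes of the MYC, MAX and MLX network, MLX fell, and with the block TXNIP fell and MYC rose as well.

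**Figure D4:**
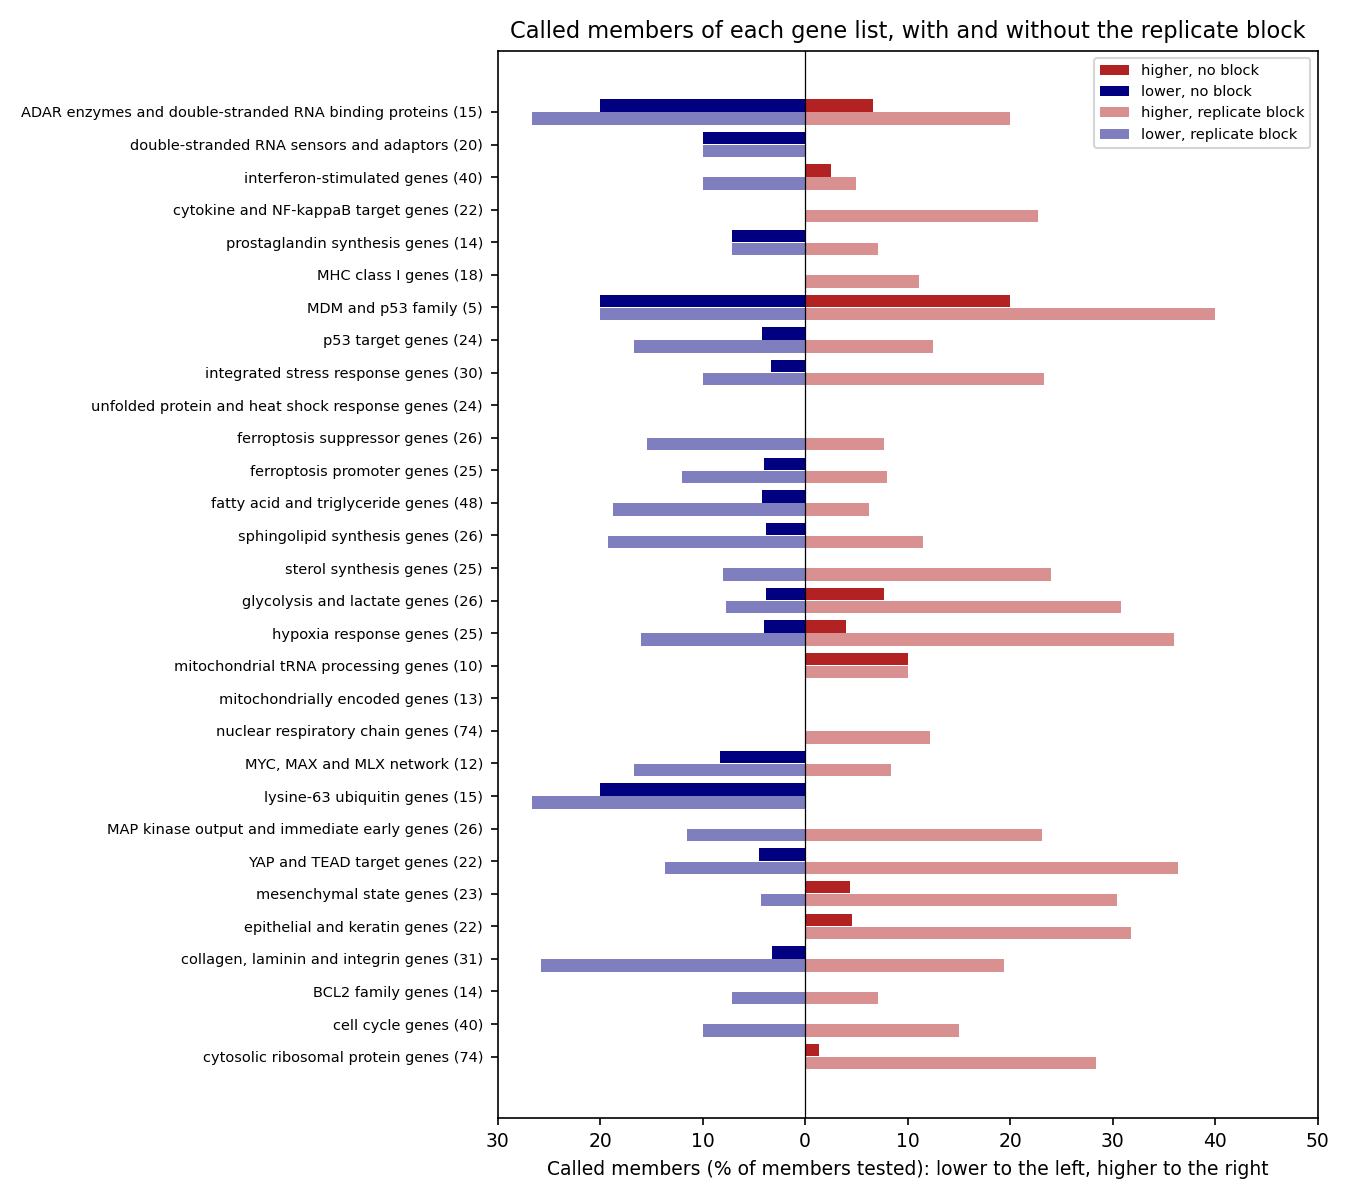
Called members of each gene list as a percentage of the members tested (number in brackets), lower in shADAR1 to the left in blue and higher to the right in red. Dark bars are the fit without the block and pale bars the fit with the replicate block. Over all genes tested, 0.637% were higher and 1.37% lower without the block, and 5.08% and 6.32% with it.

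Glycolysis and hypoxia genes held both called rises and called falls. Of 26 glycolysis and lactate genes 2 rose and 1 fell (8 and 2 with the block), and 16 had a positive log2 fold change, with a median of 0.09. Beside SLC16A3, the rise was GPI, the second enzyme of glycolysis, at 448, 473 and 431 CPM against 257, 316 and 296 CPM (0.64 ± 0.10, adjusted p = 0.000302). The fall was TPI1, the triosephosphate isomerase, at 158, 319 and 257 CPM against 410, 505 and 442 CPM (-0.89 ± 0.17, adjusted p = 0.00294), a gene with near-identical pseudogene copies. GPI holds 1 copy of GTCGCCC and TPI1 holds 1 copy of ATCTTCA in the 3′ UTR. LDHA, which makes lactate, and HK2, which phosphorylates glucose, were not called in either fit.

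Of 25 hypoxia response genes, 21 had a positive log2 fold change and the median was 0.25, at 0.23, 0.11 and 0.31 in the 3 pairs. The calls were 1 rise and 1 fall, and 9 and 4 with the block. ERO1A, an oxidase of the endoplasmic reticulum, was at 200, 195 and 225 CPM against 135, 129 and 141 CPM (0.61 ± 0.11, adjusted p = 0.0013). LOXL2, a collagen cross-linking oxidase, was at 132, 159 and 170 CPM against 332, 310 and 297 CPM (-1.02 ± 0.16, adjusted p = 0.000354). Rises added by the block included NDRG1, ANGPTL4, EGLN1, BNIP3, ADM, PDK1 and P4HA2, and there were falls in HIF1A, EPAS1 and CA12. NDRG1, a marker of hypoxia, was at 398, 301 and 364 CPM against 274, 261 and 230 CPM, with an adjusted p of 0.051 without the block and 0.000237 with it.

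Stress response genes come next. Of 30 integrated stress response genes 0 rose and 1 fell, and 7 rose and 3 fell with the block (median 0.13). The fall was XPOT, the exporter of tRNAs, at 127, 146 and 132 CPM against 204, 171 and 186 CPM (-0.47 ± 0.10, adjusted p = 0.0062), and it lost its call without shADAR1 replicate 1 or shNT replicate 1. ATF4, the central factor, was at 293, 215 and 224 CPM against 285, 237 and 255 CPM and was not called. ATF3 was at 70.1, 9.44 and 15.9 CPM against 35.3, 4.45 and 12.9 CPM, so it was high in replicate 1 of both arms, and was called with the block (adjusted p = 0.00184). Of 24 unfolded protein and heat shock genes 0 were called in either fit, 0 at an unadjusted p under 0.05 without the block and 2 with it, and 0 by DESeq2.

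Immediate early genes are transcribed within minutes of a growth signal. Of 26 MAP kinase output genes 0 were called without the block (2 at an unadjusted p under 0.05, 1 by DESeq2) and 6 rose and 3 fell with it. The rises were JUND, ETV4, JUNB, DUSP1, EGR1 and IER2. The falls included CCND1, at 641, 680 and 637 CPM against 772, 802 and 758 CPM. It fell by 0.25 with the block (adjusted p = 0.00442, and 0.487 without it, edgeR). Of 22 YAP and TEAD target genes, 0 rose and ASAP1 fell, and 8 rose and 3 fell with the block. CCN2 was at 907, 509 and 504 CPM against 494, 340 and 322 CPM (adjusted p = 0.248, and 1.78e-05 with the block), and F3, tissue factor, at 289, 312 and 281 CPM against 185, 207 and 199 CPM (0.0535 and 1.05e-06).

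Among genes of cell state, 23 mesenchymal genes held 1 rise (7 rises and 1 fall with the block) and 22 epithelial and keratin genes 1 rise (7 with the block). CDH2 (N-cadherin) was at 1.15, 0.577 and 0.656 CPM against 0.184, 0.356 and 0.221 CPM, and ST14 (matriptase) at 1.24, 0.884 and 1.34 CPM against 0.369, 0.668 and 0.597 CPM, both low in this line. Rises with the block included CDH1 (2, 13 and 16 counts against 0, 5 and 5) and KRT6A (2, 1 and 15 against 0, 0 and 2), both near the floor. The blocked call was lost without replicate 2 or 3 for CDH1 and without replicate 3 for KRT6A. ZEB1, a repressor of epithelial genes, fell with the block by 0.32 (adjusted p = 0.000741, and 0.338 without it). Of 31 collagen, laminin and integrin genes 0 rose and 1, ANTXR1, fell, and 6 rose and 8 fell with the block. Of 40 cell cycle genes 0 were called without the block (8 at an unadjusted p under 0.05, 0 by DESeq2), and 6 rose and 4 fell with it. Of 14 BCL2 family genes 0 were called without the block (2 at an unadjusted p under 0.05, 0 by DESeq2), while MCL1 rose and BAK1 fell with it.

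The medians of the 2 largest lists and of the mitochondrially encoded genes differed between the pairs, and pair 1 holds the shallowest libraries. All 74 cytosolic ribosomal protein genes had a positive log2 fold change, with a median of 0.18, and 1 rose without the block (RPL15, 0.42 ± 0.10, adjusted p = 0.022) and 21 with it. The list's median was 0.40 in pair 1, 0.15 in pair 2 and -0.01 in pair 3, and with replicate 1 of both arms left out the blocked fit called 4. Of 74 nuclear respiratory chain genes 63 were positive and 9 rose with the block, at pair medians of 0.32, 0.10 and -0.02, and 0 were called in the blocked fit without replicate 1. Without the block 0 were called (10 at an unadjusted p under 0.05, 1 by DESeq2). The 13 mitochondrially encoded genes were all negative and 0 were called in either fit (2 at an unadjusted p under 0.05 without the block and 5 with it, 0 by DESeq2), at pair medians of 0.16, -0.27 and -0.39. With replicate 1 left out, 9 of them were called lower with the block. Of 10 mitochondrial tRNA processing genes, HSD17B10 was the only call in both fits.

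The change in MDAMB231 was then tested against the mean change of the other 3 lines. Without the block 18 genes differed (0.0843%), 4 with a more positive and 14 with a more negative change in MDAMB231, and with the block 788 did (3.69%). SLC16A3 differed most clearly: its log2 fold change was 1.06 in MDAMB231 and 0.07, 0.04 and -0.07 in BT549, HCC1806 and MDAMB468, a difference of 1.04 ± 0.13 (adjusted p = 0.00166). HSD17B10 rose by 1.52 against 1.10, 0.37 and 0.44, TMED4 by 1.06 against 0.72, 0.27 and 0.35, and TRAM2, a protein of the translocon, by 0.48 against 0.15, -0.03 and -0.03.

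Genes with a more negative change in MDAMB231 included ARRB2, a β-arrestin that ends receptor signalling. It was at 5.46, 5.79 and 7.22 CPM against 11.3, 13.5 and 15.9 CPM in MDAMB231, a log2 fold change of -1.15, and changed by -0.34, -0.00549 and -0.07 in the other lines (difference -1.02 ± 0.15, adjusted p = 0.00595). ANTXR1 fell by 1.59 in MDAMB231 and had changes of -1.16, -0.38 and -0.86 elsewhere, RAB11FIP2 by 1.61 with -0.69, -0.58 and -0.66 elsewhere. SEPTIN5, a cytoskeletal GTPase, was at 0.766, 1.34 and 0.890 CPM against 1.75, 2.34 and 2.12 CPM, a change of -1.03 against 0.18, 0.05 and 0.37 elsewhere. The size of the ADAR knockdown itself was -2.19 in MDAMB231 and -1.94, -1.59 and -1.43 in the other lines (adjusted p of the difference 0.413, and 0.0173 with the block). MDM2 rose by 0.94 against 0.93, 0.38 and 0.56, a difference with an adjusted p of 0.659.

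The count of called genes was lowest without replicate 1 of shADAR1, at 202, against 526 and 399 without its replicates 2 and 3. It was 307, 334 and 316 without shNT replicates 1, 2 and 3, and 156 without replicate 1 of both arms, of which 34 rose and 122 fell. With the block and without both libraries of replicate 1, 1331 genes were called, and 412 of the 429 were among them. The ratios of the 3 pairs, which share no library, correlated over 13467 genes at 0.49 for pairs 1 and 2, 0.363 for pairs 1 and 3 and 0.439 for pairs 2 and 3, as a description across genes that are not independent. Of the 20 largest rises and falls, 16 kept their call in each of 19 other settings. The exceptions were KRTAP2-3, MICB, PTGES and GJA3, of which PTGES and GJA3 lost it only with the 6 MDAMB231 libraries fitted alone.

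**Figure D5:**
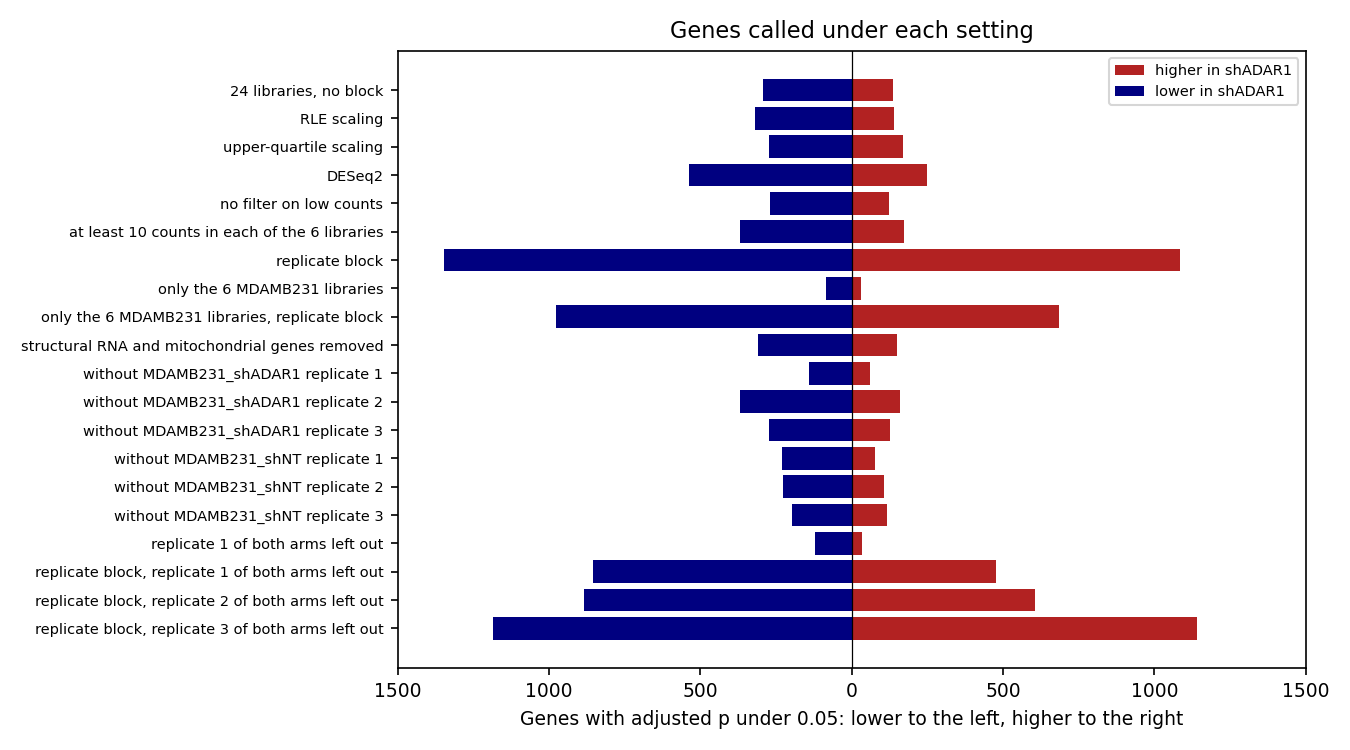
Number of genes past an adjusted p of 0.05 under each setting (rows), lower in shADAR1 to the left in blue and higher to the right in red. The fit without the block called 429 genes, the settings that leave out 1 library called 202 to 526, and the 5 settings with a replicate block called 1331 to 2434.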

How the data were processed

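The authors deposited, for each library, whole-number read counts per gene, CPM and RPKM, per the file headers. CPM equals the share of the library's total (largest difference 4.7e-11) and RPKM is CPM per kilobase of listed length; neither of these deposited columns was tested. The submitters' processing notes name STAR, featureCounts and edgeR; build, annotation and strand use are not given in the sources used here. Of 37416 genes, 34265 were in GENCODE 29 (GRCh38) and 31354 had the same start and end. Gene symbols came from a name table (33972 matched).

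Counts were filtered with filterByExpr, scaled by TMM and fitted with edgeR 4.0.16 (R 4.3.3, quasi-likelihood F test) in 1 model of all 24 libraries and 8 groups, with Benjamini-Hochberg adjustment over 21352 genes. SE came from the fold change and F. The labels call the replicates biological but do not describe separate cultures, so p-values measure the spread between these libraries. Chi-square over degrees of freedom between replicates of an arm was 11.8 or more, so none was a copy or a repeat sequencing of another library. The value cannot tell separate cultures from separate preparations of the same culture. Same-numbered MDAMB231 libraries all correlated above 0.1 over all genes tested, so the numbers were taken as pairs in the pair ratios and in the replicate block. The block was set by replicate number in every line, but these correlations were read in MDAMB231 only. Whether same-numbered libraries of the other lines vary together was not checked. The block is given as an alternative, and the fit without it does not use the pairs. DESeq2 1.42.0, RLE and upper-quartile scaling, other filters, removal of structural RNA and mitochondrial genes, MDAMB231 alone and left-out libraries were tried.

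Members and the 31 gene lists were chosen with earlier results of these data known. Named were ADAR and MDM2, the 10 largest rises and falls past the threshold with separate arms and a mean of at least 5 CPM, up to 3 members per list with the smallest p among those called in either fit, the 4 smallest p per direction for the difference between lines (mean log2 CPM at least 2), and the list of earlier falls. Other genes named as called with the block, or given as familiar members that did not pass, were chosen after their values were seen, as was GTCGCCC. Some genes and sequences are not reported here.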

Additional observations from a re-analysis of the deposited data

Results flagged for a closer look

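The named genes below changed in MDAMB231 by an amount that differed from the mean change of the other 3 lines, by a test of the difference itself (edgeR, adjusted p under 0.05 over all genes). Differences are log2 fold change in MDAMB231 minus that mean. SLC16A3 differed by 1.04 (SE 0.133) and passed in each of 17 alternatives. ARRB2 differed by -1.02 (15 of 17) and ANTXR1 by -0.796 (14 of 17). HSD17B10 differed by 0.88, RAB11FIP2 by -0.97, SEPTIN5 by -1.23 and TMED4 by 0.617 (12 of 17 each). OAT differed by -1.04 and TRAM2 by 0.453 (11 of 17 each). SPOPL differed by -0.746 (8 of 17) and TP63, at under 1.3 CPM in MDAMB231, by -1.63 (7 of 16). SLC16A3 was the only one of these 11 genes called without shADAR1 replicate 1.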

How the results depend on the processing

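The count of 429 genes (136 higher, 293 lower) moved with several settings. The replicate block gave 2434 (1085 and 1349). The 6 MDAMB231 libraries alone gave 117 (31 and 86), and 1663 (686 and 977) with the replicate block. DESeq2 gave 786 (248 and 538). Leaving out 1 library gave 202 to 526 (60 to 158 higher, 142 to 368 lower), lowest without shADAR1 replicate 1; without shNT replicate 1 the rises were 76. Leaving out replicate 1 of both arms gave 156 (34 and 122). The replicate block without replicate 1, 2 or 3 of both arms gave 1331 (476 and 855), 1490 (605 and 885) and 2327 (1141 and 1186). These last 3 settings, and the shares under the calls of the block, were added after the data were seen. The cause was not tested, beyond the fewer libraries in each.

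The 18 genes that differed from the other lines became 788 with the replicate block, 80 with DESeq2, 2 without replicate 1 of both arms, and 292, 446 and 1043 with the replicate block and without replicate 1, 2 or 3. Leaving out 1 library gave 1 to 40: 1 and 40 without shADAR1 replicates 1 and 2, and 4, 4 and 2 without shNT replicates 1, 2 and 3.

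With the calls of the replicate block, ATCTTCA was in 29.2% and GTGGGCC in 19.7% of falls, and GTCGCCC in 8.74% of rises. With the calls of the fit without the block, taking any transcript moved the shares from 45.0%, 27.0% and 21.9% to 48.1%, 30.1% and 24.2%. ADAR was called in all 19 alternatives, and no named gene changed sign in any. Among 98 named genes the block added 48 calls and lost 0, and RLE scaling changed none. The 48 follow from the choice of genes, since list members called only with the block were also named. They therefore say nothing of how stable the named genes are. The mitochondrially encoded list has no value with those genes removed. Upper-quartile scaling moved the median of all genes by 0.02. Depth limits low genes most: 7644 tested genes had fewer than 10 counts in shNT replicate 1.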
